A study of Mus musculus with 5 samples.

Results

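Chromosomes 8 and 11 were examined as whole chromosomes in 5 mouse embryonic stem cell (ESC) lines, by the shift of the expression of all their measured transcripts. The members were the array probes placed on chromosome 8 or chromosome 11 whose signal was well above background on all 5 arrays. Of the 1940 probes placed on chromosome 8, 1082 met this rule, with 749 gene names. Of the 2997 probes placed on chromosome 11, 1717 met it, with 1195 gene names. The 2799 members were compared with 16849 such probes on the 17 other autosomes, of 34031 placed there. The share kept was 55.8% on chromosome 8, 57.3% on chromosome 11 and 49.5% on the other autosomes. The array held 41174 probes in all. The positions are those of the mouse genome build mm7, and the members ran from chr8:3051011 to 127822367 and from chr11:3083835 to 122077899. Since probes were kept only where all 5 lines expressed the transcript, no member could enter through a single line. No gene is given a value here.

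The study replaced the coding region of ECAT11 with an EGFP-IRES-Puro cassette and compared wild-type ESCs with ESCs homozygous for this knock-in allele. RF8, of strain 129sv and labelled male, is the wild-type parental line in which the allele was made. #620-2 is a wild-type line of mixed C57BL6/129sv background, labelled female. The ECAT11EGFP/EGFP lines had the same mixed background, with #620-6 labelled female and both #757-1 and #757-2 labelled male. Each of the 4 mixed lines was derived from a blastocyst of crosses between heterozygous mice, so that a line stands for 1 derivation and carries its own culture history. All were grown on gelatin-coated dishes in serum and LIF, with no other treatment. RNA of each line was put on a single Agilent array in one colour (Cy3), and values of a single line therefore have no replicate and no test.

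ESCs divide rapidly for many passages and often gain or lose whole chromosomes. A gained chromosome 8 is among the most frequent changes in cultured mouse ESCs, and gains of chromosome 11 are also known. Cells with such a gain can overgrow the culture. An extra copy raises the transcripts of most genes of that chromosome at the same time, so a gain is seen on an expression array as a shift of the whole chromosome rather than as a change of a few genes. All mouse chromosomes carry the centromere at one end, and positions are counted from that end. Chromosome 8 carries genes such as Klf2 and Junb, which encode transcription factors, and Zfp42, a marker of the undifferentiated state. Chromosome 11 carries Stat3, through which LIF sustains self-renewal, the tumour suppressor gene Trp53 and the Hoxb cluster. For comparison, an extra copy of a chromosome in every cell, with expression in proportion to copies, would raise its transcripts by log2 of 3 over 2, which is 0.58. The arrays measured RNA, and a gain carried by part of the cells cannot be told apart from a smaller change in every cell.

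The 75th percentile of the intensities, to which each array was scaled, lay between 688 and 794. RF8, #620-2 and #620-6 shared slide 1, and #757-1 and #757-2 shared slide 2. An array had 21236 to 27128 probes well above its background, fewer on slide 2 than on slide 1, and no spot was saturated. The number of arrays limits the precision. All 7 ESC markers with a probe, of 8 listed, were well above background on every array, and their summed level, in units of the 75th percentile, ranged from 80.8 in #757-2 and 96.0 in #620-6 through 159 in #757-1 to 178 in RF8 and 195 in #620-2. Of 8 fibroblast markers, 6 were well above background on every array. The summed level of all 8 fell from 15.4 for RF8 to 9.58 for #620-2, 9.18 for #620-6, 4.62 for #757-2 and 2.37 for #757-1. The part of either in the shifts below was not tested.

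The first question was whether either chromosome stood apart from the other autosomes within a line. For each probe, the log2 value of a line was centred on the median of the 5 lines, and the shift of a chromosome was the median over its probes minus the median over the 17 other autosomes. The shift of chromosome 8 was 0.20 for RF8, -0.17 for #620-2, -0.23 for #620-6, 0.14 for #757-1 and 0.00 for #757-2. RF8 and #757-1 were thus high, #620-2 and #620-6 low, and #757-2 in the middle. The shift of chromosome 11 was 0.091 for RF8, -0.26 for #620-2, 0.00 for #620-6, -0.029 for #757-1 and 0.10 for #757-2. Here #620-2 was the low line, while #757-2 and RF8 were the high ones. The order of the lines was therefore not the same on both chromosomes. #757-1 was above the middle on chromosome 8 and below it on chromosome 11, and #620-6 was low on chromosome 8 and at 0 on chromosome 11.

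Medians of the 17 other autosomes stayed near 0 on this scale. In RF8 and #757-2 they were all exactly 0. They ranged from -0.016 for chromosome 15 to 0 in #620-6, and from 0 to 0.033 for chromosome 10 in #757-1. #620-2 had the widest range, from -0.12 for chromosome 18 to 0.027 for chromosome 6. Chromosomes 8 and 11 lay outside the range of their own line in every case but the pair of shifts that were 0, chromosome 8 in #757-2 and chromosome 11 in #620-6. In RF8 and #757-2 any nonzero shift would lie outside so narrow a range. In #620-6 and #757-1, 16 and 14 of the 17 medians were exactly 0.

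Centring on the median of 5 lines holds 1 line at 0 for each probe and pulls chromosome medians toward 0, so the values were also centred on the 5-line mean. The shift of chromosome 8 was then 0.25 for RF8, -0.18 for #620-2, -0.21 for #620-6, 0.16 for #757-1 and 0.016 for #757-2. The shift of chromosome 11 was 0.17 for RF8, -0.25 for #620-2, 0.025 for #620-6, -0.10 for #757-1 and 0.14 for #757-2. The sign of every nonzero shift was the same under both centrings, and the largest difference between them concerned #757-1 and RF8 on chromosome 11. Shifts also depend on which lines set the centre. On chromosome 8, that of #757-1 was 0.080 without #620-2 and 0.075 without #620-6, that of #620-2 was -0.10 without RF8, and that of #620-6 was -0.14 without RF8 and -0.15 without #757-1. On chromosome 11, that of RF8 was 0.18 without #757-2, that of #757-2 was 0.17 without RF8, and that of #757-1 was -0.14 without #620-2, -0.10 without #620-6, -0.063 without RF8 and -0.049 without #757-2. The shifts that were 0 ranged from -0.052 to 0.080 for #757-2 on chromosome 8 and from -0.023 to 0.045 for #620-6 on chromosome 11. With the 5-line mean, the SD over the 17 other autosomes was between 0.015 in #757-2 and 0.060 in #620-2. Their range was widest in #620-2, from -0.14 to 0.069. Chromosomes 8 and 11 again lay outside the range of their own line except for chromosome 8 in #757-2 and chromosome 11 in #620-6.

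**Figure D1:**
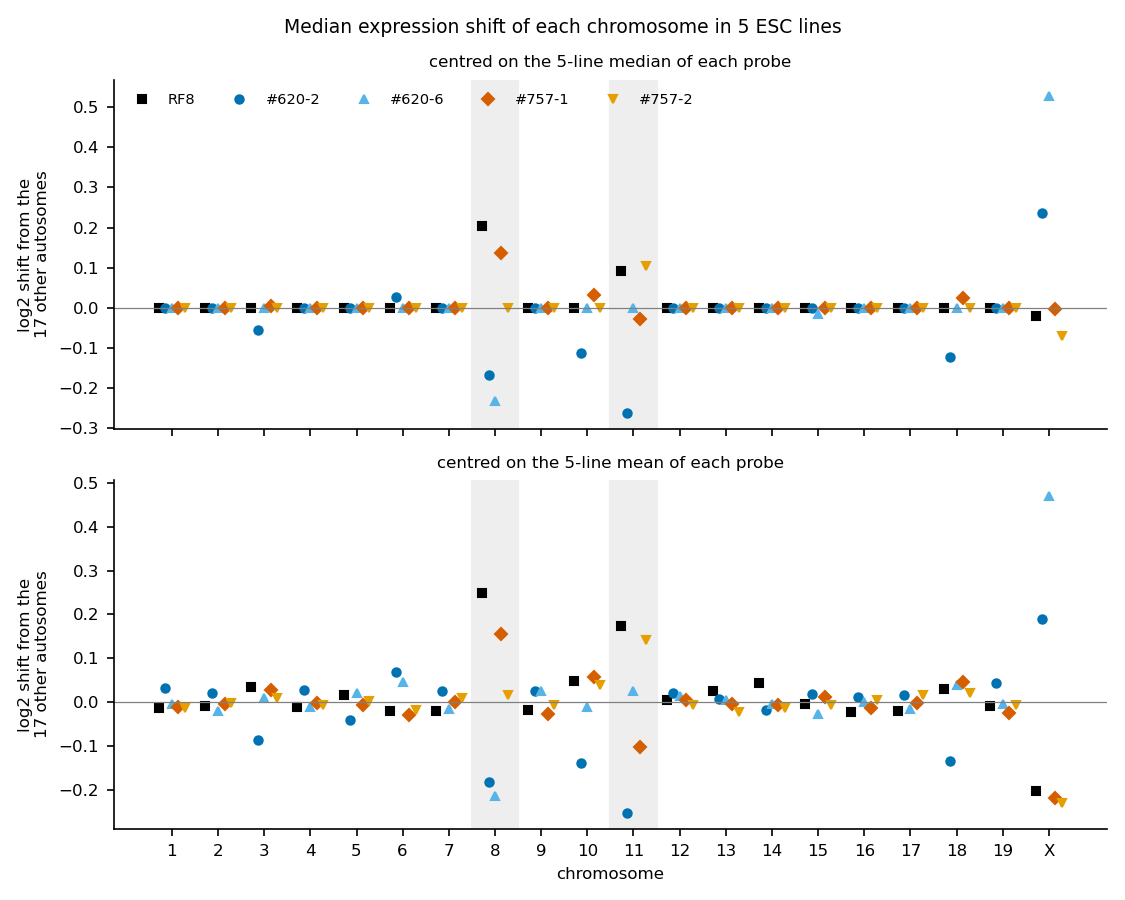
Shift of each chromosome in each of the 5 lines on the log2 scale, as the median over its probes minus the median over the 17 other autosomes, with probes centred on the 5-line median (top) or the 5-line mean (bottom); each symbol is 1 line, chromosomes 8 and 11 are shaded, and there are no error bars because each line had 1 array. On chromosome 8 RF8 lies at 0.20 and #620-6 at -0.23 in the top panel, and on chromosome 11 #620-2 lies at -0.26, while the other autosomes stay between -0.12 and 0.033.

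The shifts were spread over many probes. Of the probes of chromosome 8, 72.9% were above the 5-line median in RF8 and 68.2% in #757-1, whereas 70.0% were below it in #620-2 and 75.4% in #620-6. In #757-2 the shares above and below were 29.9% and 27.7%. On chromosome 11, 62.5% of the probes were above the 5-line median in RF8 and 68.4% in #757-2, 75.8% were below it in #620-2 and 53.3% in #757-1. In #620-6, 36.6% were above and 41.6% below.

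Probes more than 0.32 from the 5-line median on the log2 scale were counted as well, beside the same count on the other autosomes. In RF8, 34.6% of the probes of chromosome 8 and 23.4% of those of chromosome 11 were higher by more than this, against 11.2% on the other autosomes. Only 5.08% and 4.19% were lower, against 12%. In #620-2, 29.4% of the probes of chromosome 8 and 42.3% of those of chromosome 11 were lower, against 14.2%, and 4.34% and 5.59% were higher, against 13.9%. Both tails had thus moved in these lines, more probes passing on one side and fewer on the other.

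In #620-6, 38.6% of the probes of chromosome 8 were lower, against 14.7% on the other autosomes, and 4.62% were higher, against 12.7%. On chromosome 11 the shares in #620-6 were 14.4% lower and 12.3% higher, near those backgrounds. In #757-1, 21.3% of the probes of chromosome 8 were higher, against 8.42%, and 14.6% of those of chromosome 11 were lower, against 7.68%. In #757-2, 14.6% of the probes of chromosome 11 were higher, against 6.44%, and 2.33% were lower, against 5.92%. On chromosome 8 the shares in #757-2 were 8.04% higher and 7.02% lower.

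Differences between lines taken probe by probe need no centring. For each of the 10 pairs of lines, the median difference over a chromosome was set against that over the 17 other autosomes. The pairs share lines and are not independent. On chromosome 8, 9 of 10 pairs lay outside the range of the 17 other autosomes, with sizes between 0.036 and 0.48, and on chromosome 11, 8 of 10 did, with sizes between 0.025 and 0.43.

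RF8 exceeded #620-6 on chromosome 8 by 0.48, a 1.40-fold difference, and the other autosomes of this pair ranged from -0.074 to 0.048. RF8 was the higher of both lines for 81.8% of the probes, and the middle of the distribution, from the lower to the upper quartile, ran from 0.13 to 0.78. RF8 exceeded #620-2 by 0.44, or 1.36-fold, with 85.1% of the probes higher in RF8. #757-1 exceeded #620-6 by 1.28-fold and #620-2 by 1.26-fold. #757-2 exceeded #620-6 by 1.17-fold and #620-2 by 1.15-fold, and it was in turn exceeded 1.18-fold by RF8.

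The smaller differences of chromosome 8 were those between RF8 and #757-1, at 0.094 (other autosomes, -0.031 to 0.042), and between #757-1 and #757-2, at 0.13 (other autosomes, -0.015 to 0.023). #620-2 and #620-6 differed by 0.036, inside the range of -0.20 to 0.068 that their other autosomes covered. The chromosome 8 levels of the lines were therefore ordered RF8, #757-1, #757-2, and then #620-2 and #620-6, whose difference stayed within the range of the other autosomes. The low lines, #620-2 and #620-6, are those labelled female, and they also share the number 620. A change particular to each line therefore cannot be told apart here from sex label or from what else these lines share. #620-2 and #757-2, at -0.20, were just outside their range of -0.18 to 0.083, and inside it when the middle class of 3 by probe brightness was taken alone.

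On chromosome 11 the largest difference was between the wild-type lines. RF8 exceeded #620-2 by 0.43, or 1.35-fold, with 83.3% of the probes higher in RF8 and quartiles of 0.16 and 0.69. #757-2 exceeded #620-2 by 1.33-fold. RF8 and #757-2 differed by 0.025, inside the range of -0.029 to 0.065 of their other autosomes. The difference between #757-1 and #757-2, which have the same genotype, sex label, strain and slide, was -0.26, with #757-1 lower for all but 11.3% of the probes, and their other autosomes stayed between -0.015 and 0.023. #620-6 lay between these groups. It was below RF8 by 0.13 and below #757-2 by the same amount, and above #757-1 by 0.13.

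#620-2 was below #757-1 by 1.11-fold on chromosome 11, and this difference of -0.15 was inside the range of -0.20 to 0.093 of their other autosomes. The levels of chromosome 11 were therefore ordered RF8 and #757-2, within that range of each other, then #620-6, and then #757-1 and #620-2, whose difference did not exceed that of other autosomes. As medians over a whole chromosome, all 20 differences were smaller in size than 0.58. That is the value for an extra copy in every cell under proportional expression. In running medians, described below, RF8 minus #620-6 ran from 0.33 to 0.73 along chromosome 8. RF8 minus #620-2 ran from 0.14 to 0.64 along chromosome 11. Whether expression on these arrays was in proportion to copies, and whether any line carried an extra copy, was not tested.

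**Figure D2:**
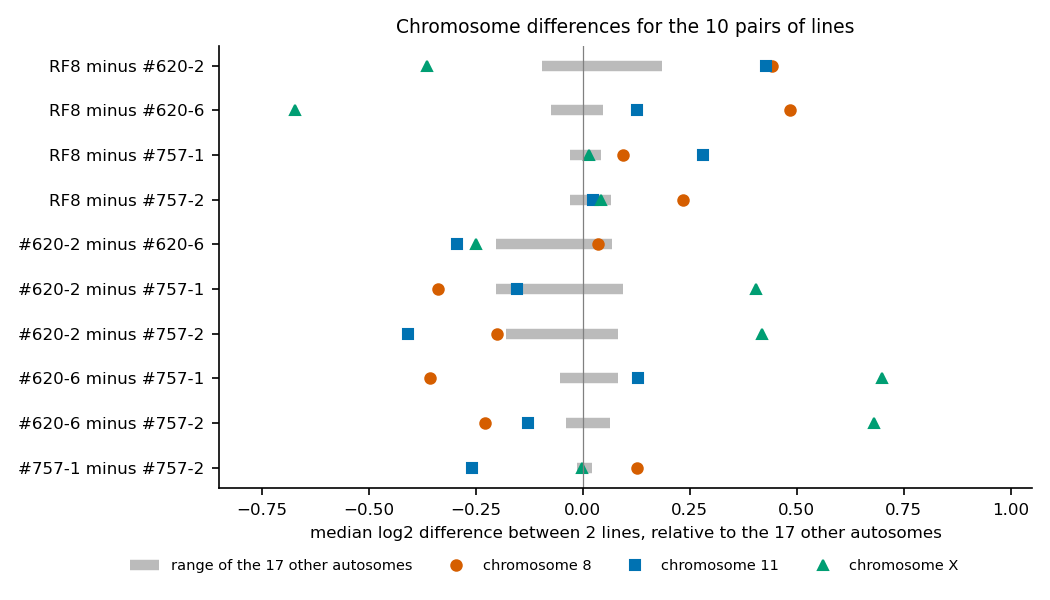
Median log2 difference between both lines of each of the 10 pairs for chromosome 8 (circles), chromosome 11 (squares) and chromosome X (triangles), relative to the 17 other autosomes, whose range is the grey bar of each pair; no error bars are drawn because each line had 1 array. The circles of RF8 minus #620-2 and RF8 minus #620-6 lie at 0.44 and 0.48, and the square of #757-1 minus #757-2 at -0.26, all beyond the grey bars.

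The distribution of the probe differences was moved as a whole. Between RF8 and #620-6, the 10th and 90th percentiles of the chromosome 8 probes were -0.27 and 1.22, against -0.74 and 0.65 on the other autosomes, and the quartiles moved from -0.30 and 0.28 to 0.13 and 0.78. Between RF8 and #620-2, the 10th and 90th percentiles of the chromosome 11 probes were -0.17 and 0.94, against -0.61 and 0.59. In the pairs with small differences the curves nearly coincided, as for RF8 and #757-2 on chromosome 11, with quartiles of -0.17 and 0.23 against -0.21 and 0.22. Single probes varied more between lines than the chromosome moved, so the shift is a property of the median over many probes.

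**Figure D3:**
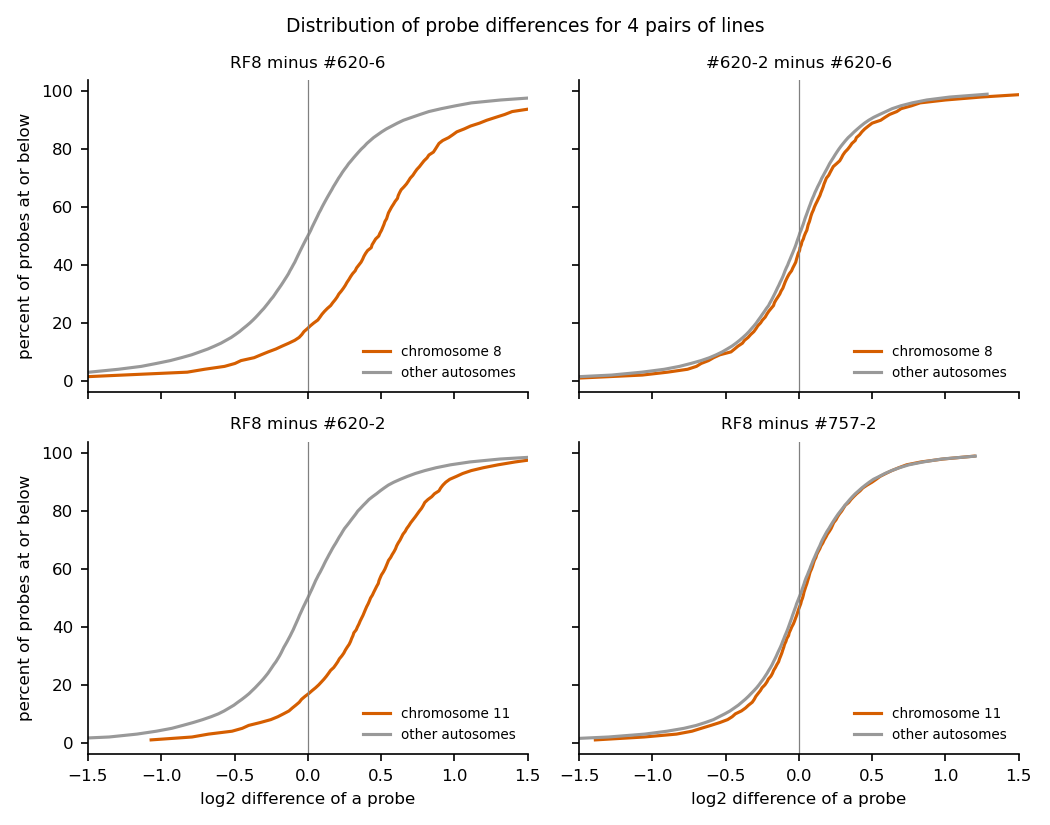
Cumulative percent of probes (vertical) at or below a log2 difference (horizontal) for 4 pairs of lines, with the probes of chromosome 8 or 11 in colour and those of the 17 other autosomes in grey, both relative to the median of the latter. The coloured curves of RF8 minus #620-6 on chromosome 8 and RF8 minus #620-2 on chromosome 11 lie to the right by 0.48 and 0.43 at their medians, and those of #620-2 minus #620-6 and RF8 minus #757-2 nearly cover the grey ones.

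Chromosome X was set beside these values because the lines differ in sex label, and undifferentiated female ESCs can keep both X chromosomes active. The labels give the sex only, and the number of active X chromosomes in each line was not measured. Its shift was -0.019 for RF8, 0.24 for #620-2, 0.53 for #620-6, -0.0028 for #757-1 and -0.071 for #757-2. Both lines labelled female were above all 3 labelled male. #620-6 exceeded the male lines by between 0.67 and 0.70, and #620-2 by between 0.36 and 0.42, while 2 active copies against 1 would give 1 under proportional expression. #620-2 was below #620-6 by 0.25, also outside the range of the other autosomes, and the male lines differed from each other by no more than 0.044. The mean difference between labelled female and male lines was 0.41, with p = 0.2 in an exact two-sided permutation test, the smallest p that 2 lines against 3 allow. The largest differences on chromosomes 8 and 11, 0.48 and 0.43, were thus somewhat above that between #620-2 and the male lines on chromosome X, and below that of #620-6.

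The comparison of the study was between genotypes. The shift of chromosome 8 was -0.032 ± 0.19 (SD, n = 3) in ECAT11EGFP/EGFP lines and 0.019 ± 0.26 (SD, n = 2) in wild-type lines. The difference of -0.051 was much smaller in size than the SD between lines of either genotype. An exact two-sided permutation test of this difference gave p = 0.8 and adjusted p = 0.8. The shift of chromosome 11 was 0.025 ± 0.070 (SD, n = 3) in ECAT11EGFP/EGFP lines and -0.086 ± 0.25 (SD, n = 2) in wild-type lines. This difference of 0.11 was smaller than the SD of the wild-type lines and larger than that of the ECAT11EGFP/EGFP lines. The same exact two-sided permutation test gave p = 0.6 and adjusted p = 0.8. With probes centred on the 5-line mean, the difference on chromosome 11 was 0.062 (p = 0.8, adjusted p = 0.8, same exact test). With 2 lines against 3 the smallest two-sided p is 0.2, so this test could not pass a threshold of 0.05. The highest and the lowest line on chromosome 11 by the 5-line mean, RF8 and #620-2, were both wild-type, and knock-in lines lay on both sides of the middle on chromosome 8.

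The genotype difference on chromosome 8 changed sign when RF8 was left out, to 0.15, and when #620-6 was left out, to 0.051, and that on chromosome 11 became -0.10 without #620-2. Within slide 1, #620-6 minus the mean of the wild-type lines was -0.25 on chromosome 8 and 0.086 on chromosome 11. That mean joins #620-2 with RF8, which has another strain and sex label than #620-6. RF8 minus #620-6 was 0.48 on chromosome 8 and 0.13 on chromosome 11. For #620-2, of the same strain and sex label, #620-2 minus #620-6 was 0.036 and -0.29. Slide 2 held ECAT11EGFP/EGFP lines only and gave no genotype difference. Differences between lines were present within both slides, at 0.48 for RF8 and #620-6 on chromosome 8 and at -0.26 for #757-1 and #757-2 on chromosome 11.

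To see whether the shifts covered whole chromosomes, running medians were taken over each probe and the 50 probes on either side of it. With values centred on the 5-line mean, RF8 was above 0 and #620-2 below 0 in 100% of the 982 windows of chromosome 8 and of the 1617 windows of chromosome 11. #620-6 was below 0 in 100% of the windows of chromosome 8, and on chromosome 11 it was above 0 in 73.9%. #757-1 was below 0 and #757-2 above 0 in 100% of the windows of chromosome 11. On chromosome 8, #757-1 was above 0 in 92.0% of the windows and #757-2 in 55.9%. Neighbouring windows share probes and are not independent.

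With values centred on the 5-line median, the running median of RF8 on chromosome 8 stayed between 0.12, in the window from 24.6 to 39.5 Mb, and 0.31, from 8.59 to 22.0 Mb. That of #620-6 stayed between -0.37, from 55.9 to 69.1 Mb, and -0.12, from 3.46 to 19.7 Mb. #620-2 was lowest from 24.4 to 39.3 Mb, at -0.27, and reached 0 from 81.7 to 86.8 Mb. #757-1 ran from 0 at the centromeric end to 0.30 at chr8:54720980-68989322, and #757-2 did not leave the range from 0 to 0.064. With the 5-line mean, #757-2 was less flat, between -0.072, from 82.3 to 87.6 Mb, and 0.14, from 24.5 to 39.3 Mb. The lines that were high or low on chromosome 8 as a whole were so along most of its length, with #757-1 as the exception described below.

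On chromosome 11, #620-2 had the lowest window, at -0.47 from 20.8 to 31.9 Mb, and was nearest to 0 from 62.5 to 69.9 Mb, at -0.066. RF8 lay between 0 and 0.23, with its highest window from 40.7 to 52.0 Mb, and #757-2 between 0.0078 and 0.18, highest from 87.2 to 95.5 Mb. #757-1 lay between -0.19, from 5.01 to 20.8 Mb, and 0. #620-6 stayed between -0.096 and 0.028. On the 17 other autosomes the most extreme windows were -0.11 and 0.091 in RF8, -0.31 and 0.20 in #620-2, -0.18 and 0.12 in #620-6, -0.028 and 0.11 in #757-1 and -0.044 and 0.16 in #757-2. Single windows of other autosomes thus reached sizes seen on chromosomes 8 and 11, most of all in #620-2. Among whole-chromosome medians, #620-2 had -0.12 and -0.11 on chromosomes 18 and 10, and the 0.033 of #757-1 on chromosome 10 was larger in size than its -0.029 on chromosome 11. With the 5-line mean this order of #757-1 was reversed, at 0.056 on chromosome 10 and -0.10 on chromosome 11.

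**Figure D4:**
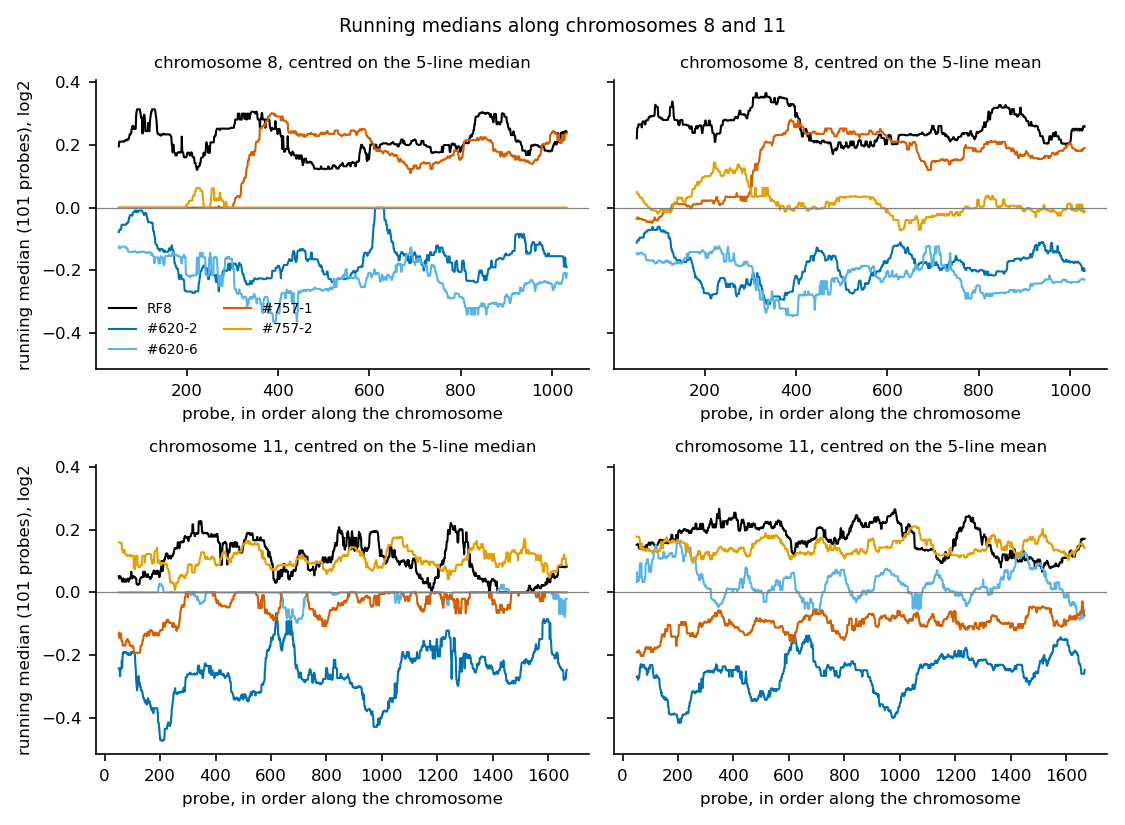
Running median over each probe and the 50 on either side of the log2 values of each line (colours) along chromosome 8 (top) and chromosome 11 (bottom), centred on the 5-line median (left) or 5-line mean (right), against the order of the probes from the centromeric end. RF8 stays above 0 along chromosome 8, between 0.12 and 0.31 at left, #757-1 rises from 0 to 0.30 further along it, and #620-2 stays at or below -0.066 along chromosome 11 at left.

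Chromosome 8 of #757-1 was not shifted evenly along its length. The chromosome was divided into 3 segments of equal probe number, after the running medians had been seen. Relative to #757-2, the median difference of #757-1 was -0.038 in the centromeric segment (chr8:3051011-59921995), 0.22 in the middle segment and 0.17 in the distal segment. Relative to RF8, #757-1 was lower by 0.26 in the centromeric segment, while RF8 minus #757-1 was -0.0019 in the middle segment and 0.074 in the distal segment. #757-1 therefore stood near #757-2 in the first stretch and near RF8 in the rest. It was above #620-2 and #620-6 in every segment. #620-2 minus #757-1 was -0.21, -0.41 and -0.36 from the centromeric to the distal segment, and #620-6 minus #757-1 was -0.19, -0.43 and -0.43. By segment medians, RF8 minus #620-6 was 0.45, 0.47 and 0.51, and RF8 minus #757-2 was 0.23, 0.22 and 0.24, in the same order. On the finer scale of running medians these pairs were not even either. RF8 minus #620-6 ran from 0.33 to 0.73 along chromosome 8, and RF8 minus #757-2 from 0.064 to 0.39. For comparison, #757-1 minus #757-2 ran from -0.10 to 0.30.

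The single position that best divided the chromosome for #757-1 minus #757-2 lay between chr8:54721398 and chr8:54943444. The median difference was -0.059 over the 336 probes before it and 0.19 over the 746 probes after it, a step of 0.25. The largest step that the same search found on any of the 17 other autosomes of this pair was 0.085. For RF8 minus #757-1 the position was near 63.0 Mb, with 0.26 before and 0.036 after, a step of 0.23 against 0.14 at most on the other autosomes. For #620-6 minus #757-1 it was near 46.4 Mb, with -0.17 and -0.43, and for #620-2 minus #757-1 near 32.4 Mb, with -0.12 and -0.39. In both of these pairs the step of 0.27 was close to the largest on other autosomes, 0.25 and 0.22.

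The 4 pairs that held #757-1 had steps between 0.23 and 0.27 on chromosome 8, and the 6 pairs without it had steps between 0.059 and 0.12. The positions in these 4 pairs ran from 32.4 to 63.0 Mb, so the data place the change in #757-1 only within a broad region. The search was chosen after the running medians had been seen, and it always returns a position, so the steps are a description.

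On chromosome 11 the same search for #757-1 minus #757-2 found a step of 0.12 near 30.5 Mb, from -0.36 before to -0.24 after, which also exceeded the 0.085 of the other autosomes. Both sides of it had the same sign, unlike on chromosome 8. By segments, #757-1 minus #757-2 was -0.29 in the centromeric segment, -0.24 in the middle segment and -0.25 in the distal segment, and its running median stayed between -0.42 and -0.20. RF8 minus #620-2 was 0.51, 0.45 and 0.36, and its running median stayed between 0.14 and 0.64. #620-2 minus #620-6 was -0.37, -0.29 and -0.23. #620-2 minus #757-1 was -0.16, -0.17 and -0.13, and #620-2 minus #757-2 was -0.45, -0.41 and -0.39. The differences that involved #620-2 thus had the same sign in all 3 segments.

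**Figure D5:**
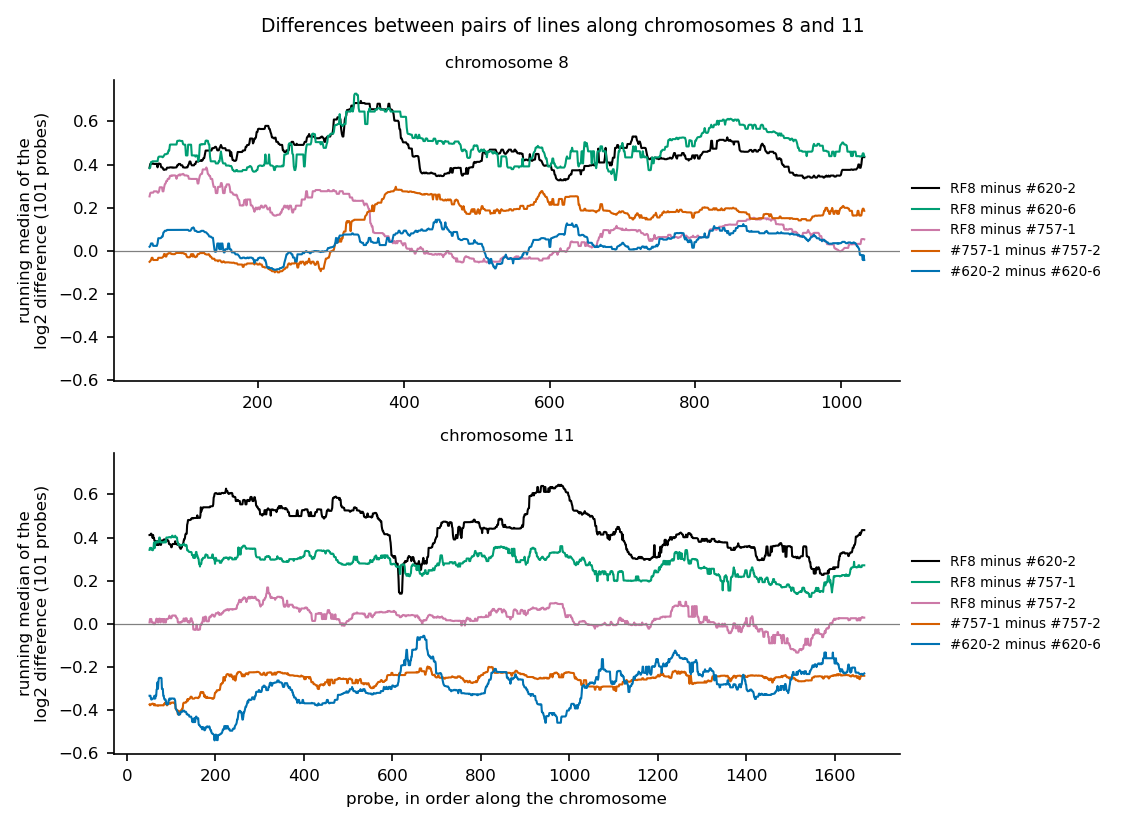
Running median over each probe and the 50 on either side of the log2 difference between both lines of 5 pairs along chromosome 8 (top) and of 5 pairs along chromosome 11 (bottom), relative to the median of the 17 other autosomes, against the order of the probes from the centromeric end. On chromosome 8, #757-1 minus #757-2 passes from near -0.059 to near 0.19 and RF8 minus #757-1 from near 0.26 to near 0.036, while on chromosome 11 #757-1 minus #757-2 stays between -0.42 and -0.20.

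The members differed from the other probes in GC content, which the rule did not use, and in signal, which it did use. Their median GC content was 43.3% on both chromosomes against 41.7% on the other autosomes, and the median log2 signal was 0.086 on chromosome 8, 0.16 on chromosome 11 and -0.058 on the other autosomes. Across probes, which are not independent replicates, Spearman's rho between the centred values of a line and GC content was between -0.039 and 0.064. Removing a GC trend or a brightness trend in each line left the same 9 and 8 pairs outside the range of the other autosomes. In the dim, middle and bright class of 3 equal classes of probes, a division made after the data had been seen, RF8 minus #620-6 on chromosome 8 was 0.48, 0.49 and 0.47, and RF8 minus #620-2 on chromosome 11 was 0.39, 0.43 and 0.44. These differences were similar in all classes, but others were not. #757-1 minus #757-2 on chromosome 8 was 0.085, 0.14 and 0.14, and the shift of chromosome 8 in the dim and in the bright class was 0.066 and 0.16 for #757-1 and -0.10 and -0.20 for #620-2.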

How the data were processed

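Total RNA of 5 ESC lines was measured on 5 one-colour Agilent arrays. The authors extracted the scans with Feature Extraction 9.5.3.1 and deposited, per spot, a background-corrected intensity that is not normalized between arrays. A second deposited file holds log2 values, shifted for each probe by a baseline that is not stated. Differences between its columns followed those of the intensities (Pearson r of 0.999881 over 20610 probes), and its column medians were -0.023, 0, -0.10, 0.058 and 0.077 in the order RF8, #620-2, #620-6, #757-1 and #757-2. The scanner model in the methods differs from that in the file headers.

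Control spots were left out and spots marked as non-uniform or outliers, 137 to 154 per array, were dropped. Signals were divided by the 75th percentile of the array, as the authors did, then log2-transformed, and replicate spots of a probe were averaged. Probe positions came from the deposited files (mm7). Chromosome medians, running medians over 101 probes and pair differences were taken relative to the 17 autosomes other than 8 and 11. "Outside" means beyond the lowest and highest of those 17. Genotypes were compared by an exact two-sided permutation test over lines, adjusted by Benjamini-Hochberg over both chromosomes. As fixed rules, no gene was given a result, and the regions named were chromosomes 8 and 11, their lowest and highest windows, the autosomes with the lowest and highest median and chromosome X. The step positions, segments and brightness classes, and the other autosomes and windows under other observations, were chosen after their values were seen. The chromosomes and lists were chosen with earlier results of these data known.

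Alternatives were normexp background correction (limma 3.58.1 in R 4.3.3, offset 50), quantile normalization, the deposited log2 values, marked spots kept, other filters on dim probes, probes of one gene averaged, centring on the 5-line mean, a trimmed mean, removal of brightness or GC trends, windows of 51 and 201 probes, a share past 1.5-fold in place of 1.25-fold (0.32 on the log2 scale), slide 1 alone and leaving out each line. Code ran in Python 3.11.15 with numpy 2.4.6, pandas 2.3.3, scipy 1.17.1, statsmodels 0.14.6 and matplotlib 3.10.9, data.table version 1.17.8 was used in R, and the code was tested on simulated data. Chromosome counts and DNA copy number are not analysed here.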

Additional observations from a re-analysis of the deposited data

How the results depend on the processing

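With 1 array per line, shifts and differences between lines are values without a test, and RNA does not measure DNA copies. All 20 differences between pairs kept their sign in 13 of 13 settings. The same 9 pairs on chromosome 8 and 8 on chromosome 11 lay outside the range of the other autosomes in each setting that kept all 5 lines, except that #620-2 and #757-2 came to lie inside it on chromosome 8, leaving 8 pairs, in the middle class of 3 by probe brightness, a division chosen after the data had been seen. Of 180 line shifts under alternatives, 176 were classed as unchanged and 4 as moved. Leaving out a line still moved several of the 176 by more than 1.5 times, as given with them. Some other settings did so too. The shift of RF8 on chromosome 11 was 0.091 and became 0.17 with the 5-line mean. That of #757-1 on chromosome 8 was 0.14 and became 0.066 in the dim class. The shifts classed as moved were of #757-1 on chromosome 11. Its value of -0.029 became -0.10 with the 5-line mean and -0.11 with the trimmed mean, and ranged from -0.14 to -0.049 as each line was left out. The genotype difference on chromosome 8 ranged from -0.23 to 0.15 as each line was left out, turning positive without RF8 (0.15) and without #620-6 (0.051), and that on chromosome 11 from -0.10 to 0.25, negative without #620-2. On chromosome X the 5-line mean gave -0.20 for RF8, -0.22 for #757-1 and -0.23 for #757-2. As each line was left out, these ranged from -0.21 to -0.0094 for RF8, from -0.21 to -0.033 for #757-1 and from -0.24 to -0.048 for #757-2. With windows of 51 probes, the lowest running median of #620-6 on chromosome 11 was -0.26 in place of -0.096. The cause of these changes was not tested, apart from the centring, which by its construction holds 1 line at 0 for each probe. No paired test was possible. The labels give the lines no replicate numbers, and across genotypes only #620-2 and #620-6 share strain, sex label and slide. #620-2 minus #620-6 was 0.036 on chromosome 8 and -0.29 on chromosome 11. The slide as a block, which leaves #620-6 against the wild-type lines of slide 1, gave -0.25 on chromosome 8 and 0.086 on chromosome 11.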

Other observations

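Among the other autosomes, #620-2 stood apart from the rest of the lines on chromosomes 10 and 18, and less so on chromosome 3. With probes centred on the 5-line mean, its shift was -0.14 on chromosome 10, -0.14 on chromosome 18 and -0.086 on chromosome 3, and 0.069 on chromosome 6. RF8 exceeded #620-2 by 0.19 on chromosome 10 and by 0.15 on chromosome 18, and #620-2 was below #620-6 by 0.14 and 0.20 on them, all smaller than the 0.43 and 0.29 by which #620-2 was below RF8 and #620-6 on chromosome 11. The lowest running median of #620-2 on these autosomes, -0.31, lay at chr10:3226868-21035189, and its highest, 0.20, at chr6:115836717-124840149. In #757-2 the highest window off chromosomes 8 and 11 was 0.16, at chr1:93696183-130594008, and in RF8 the lowest was -0.11, at chr1:118159109-133261061. These values are descriptions of single lines with 1 array each.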
